A study of Mus musculus with 8 samples.

Results

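Axonemal dyneins are the motors that bend cilia and sperm flagella, and this report describes the transcripts of their heavy chains, intermediate and light chains, docking factors, length rulers, nexin link and cytoplasmic assembly factors in mouse testis. The genes were taken by symbol: every row whose symbol starts with Dnah, Dnai, Dnaic, Dnal, Dnali or Dnaaf and a digit, together with 18 named genes, namely the light chain gene Tcte3 and genes of docking, assembly, the rulers and the nexin link. The rule found 42 of the 19906 genes in the table, and 41 of them passed the filter on low counts that left 15787 genes for testing. The study set out to learn what TMEM232, a protein enriched in testis, does in sperm formation. Whole testes of mice aged 2 months were used for RNA sequencing, with 4 mice of the genotype Tmem232-/- (KO) and 4 of the genotype Tmem232+/+ (WT). The Tmem232-/- line carries a CRISPR-Cas9 deletion made in C57BL/6 oocytes that removes exons of Tmem232 and shifts its reading frame in every tissue, and the Tmem232+/+ mice have the intact gene.

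A motile axoneme is a ring of doublet microtubules around a central pair. Outer arm dyneins set the beat frequency and power, and inner arm dyneins shape the bend. Each arm is built around heavy chains that hydrolyse ATP, it is assembled in the cytoplasm with the help of chaperone-like factors, and it is carried to a docking site on the doublet. The rulers and the nexin-dynein regulatory complex fix the spacing of the arms and hold neighbouring doublets together. In the testis, these genes are transcribed in spermatocytes and spermatids, which build the flagellum. In mammals, DNAH8 and DNAH17 are the outer arm heavy chains of the sperm tail, whereas DNAH5, DNAH9 and DNAH11 are known from motile cilia of epithelia.

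The libraries held between 15428421 and 16350871 counts. Tmem232 itself had 122 to 148 CPM (counts scaled to 1000000 per library after TMM normalization) in KO-labelled libraries and 106 to 111 in WT-labelled libraries, so the targeted gene ran against its label, and each direction below is that of the labels. The difference was small, with a log2 fold change of 0.27 (adjusted p = 0.0335, edgeR), and it was called in 15 of 20 alternative analyses (adjusted p from 0.00269 to 0.114). Its count is for the whole gene and does not separate the deleted exons. The elongating spermatid markers Prm1 and Tnp1 had 1.63 to 7.54 and 2.72 to 10.006 CPM in WT-labelled libraries, and 44.3 to 132 and 36.7 to 90.6 CPM under the other label. At an adjusted p under 0.05 in edgeR's quasi-likelihood test, 12 of 13 elongating spermatid markers and 7 of 9 round spermatid markers were higher in KO-labelled libraries, while 4 of 10 tested spermatogonial, 1 of 12 spermatocyte and 2 of 5 peritubular myoid markers were lower. The summed level of the elongating spermatid markers was 1731 to 2717 CPM under the KO label and 654 to 1212 CPM under the other, and that of the round spermatid markers was 1222 to 1451 and 690.4 to 899 CPM. No marker of Sertoli cells, Leydig cells, macrophages, endothelial cells, epididymis or red blood cells was called in edgeR. At an unadjusted p under 0.05, 5 of 7 Leydig markers were higher and 0 lower. Of 10 Sertoli markers 1 was higher and 2 were lower, of 6 endothelial markers 0 and 1, and the other 3 lists had 0. Over all tested genes these shares were 14.6% and 10.5%. Of 6 epididymis markers only Crisp1 was tested, with a log2 fold change of -2.54 (adjusted p = 0.280, edgeR). The summed level of that list was 0.0632 to 6.32 CPM under the KO label and 0.182 to 31.96 CPM under the other. DESeq2 called 1 Sertoli and 2 Leydig markers, and limma-voom called 0 and 1. In whole tissue, fewer cells of a type and less RNA per cell cannot be told apart.

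The level of each gene is given as the deposited FPKM, which is per transcript length and allows levels of different genes to be compared. Tcte3, a light chain gene of the Tctex family, had the highest level, with 923 ± 135 FPKM (SD, n = 4) in KO-labelled libraries and 912 ± 76.3 (SD, n = 4) in WT-labelled libraries. The assembly factor Dnaaf1, needed for the preassembly of both arms, followed with 341 ± 5.45 and 349 ± 17.7 FPKM (SD, n = 4 each), and Zmynd10, another assembly factor, with 206 ± 23.3 and 232 ± 20.6 FPKM (SD, n = 4 each). In the nexin link, Ccdc65 (also called DRC2) had 184 ± 6.95 and 164 ± 10.4 FPKM (SD, n = 4 each). At the other end, Pih1d3 and Ccdc103 lay lowest among the assembly factors, with 16.8 ± 1.27 and 18.4 ± 0.808 FPKM (SD, n = 4 each) under the KO label.

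**Figure D1:**
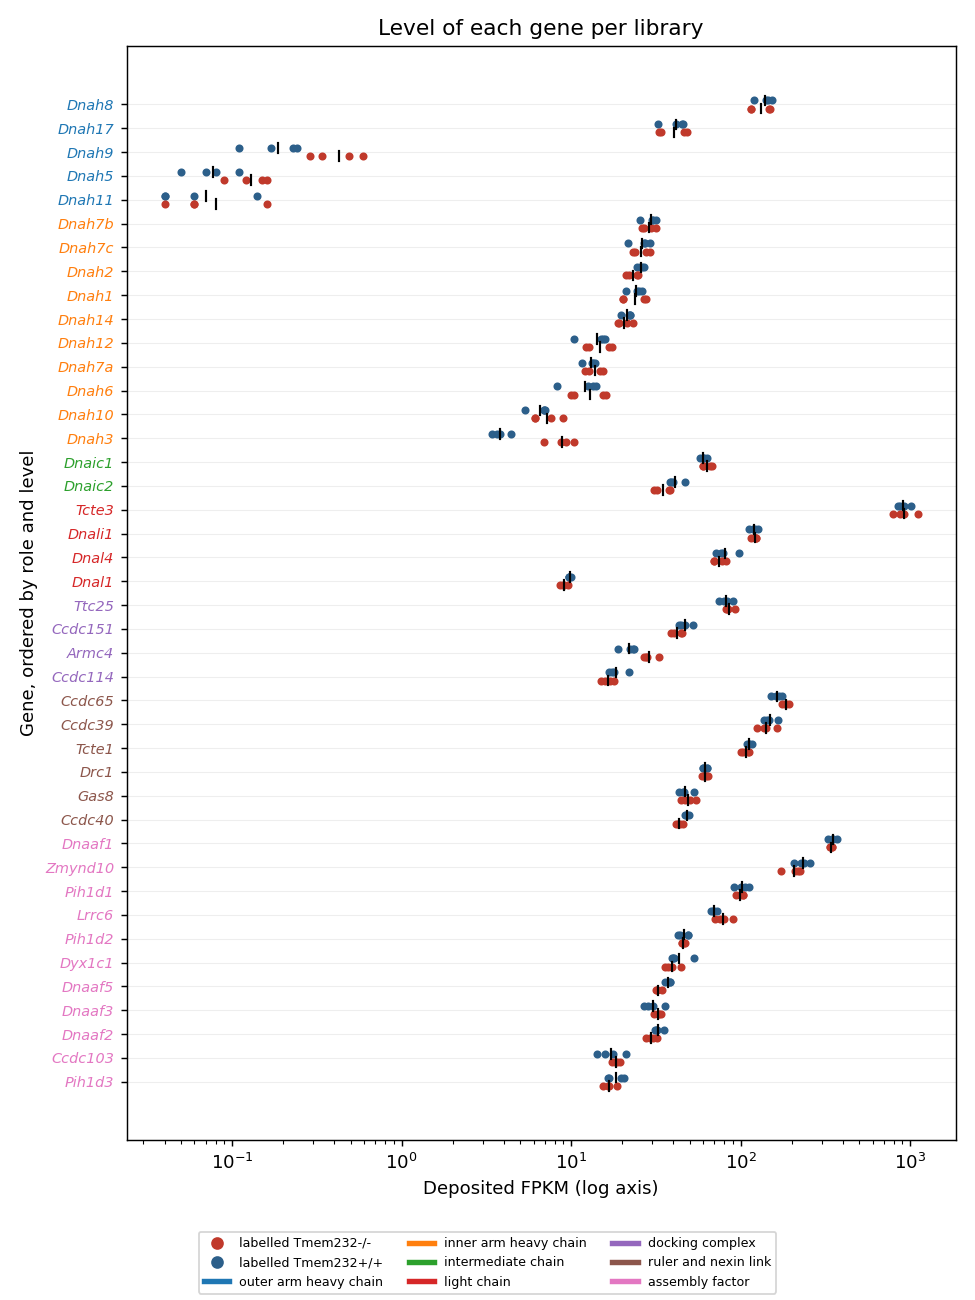
Deposited FPKM (horizontal, log axis) of the 42 genes, ordered by role and then by level; each point is a library, red for the KO label and blue for the WT label, and black ticks are the means of 4 libraries. Tcte3 lies highest, and Dnah9, Dnah5 and Dnah11 lie lowest by a wide margin. The red and blue points of Dnah3, Armc4 and Dnah9 do not overlap, with red above, nor do those of Dnaaf5, Ccdc40, Dnaic2 and Dnal1, with blue above. For Dnal1 the nearest points are 9.63 and 9.65 FPKM. The share of all genes without overlap was not counted in FPKM. In CPM it was 11.8% of tested genes with the KO label above and 6.88% with the WT label above.

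Heavy chain transcripts differed far more in level among themselves. Dnah8 had 132 ± 19.4 FPKM under the KO label and 139.7 ± 13.8 under the other (SD, n = 4 each), and Dnah17 had 40.4 ± 8.05 and 41.3 ± 6.02 (SD, n = 4 each). The inner arm heavy chains ranged from 3.81 FPKM for Dnah3 to 29.4 for Dnah7b in WT-labelled libraries. The epithelial outer arm chains were close to the detection limit: Dnah9 had 0.188 FPKM, Dnah5 0.0775 and Dnah11 0.070 under the WT label. Dnah11 was not tested because it had only 2.28 to 10.29 counts per library. These genes are long, so that 1 FPKM of a heavy chain rests on many counts, and the counts of Dnah9 (23 to 97 per library) and Dnah5 (11 to 39) set the precision of what follows.

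Near-identical copies limit what can be said of single members. Dnah7a, Dnah7b and Dnah7c, inner arm heavy chain genes on chromosome 1 of GRCm38 (53396995 to 53708118, 46065794 to 46373551 and 46424245 to 46807477), have counts that are not whole numbers, as do Tcte3, Tcte1, Dnaaf1, Ccdc39 and Dnah11, so reads there were shared out between genes or transcripts by the authors' counting. In the longest GENCODE M21 coding sequences, of 12075, 12207 and 12075 bases, identity was 95.95% between Dnah7a and Dnah7b, 96.87% between Dnah7a and Dnah7c and 96.26% between Dnah7b and Dnah7c. A stretch of 100 bases of Dnah7b occurred without a mismatch in Dnah7c at 17.2% of positions, and one of 50 bases at 38.6%. Between Dnah7a and either other copy the shares were lower, 12.4% to 13.2% for 100 bases and 29.9% to 30.9% for 50 bases. The following 60 coding bases show how sparsely the copies differ; they start at base 49 of the reading frame of Dnah7a, base 181 of Dnah7b and base 49 of Dnah7c, and capitals mark the 5 positions at which not all copies agree.
Dnah7a: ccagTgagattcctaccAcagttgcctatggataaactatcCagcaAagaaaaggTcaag
Dnah7b: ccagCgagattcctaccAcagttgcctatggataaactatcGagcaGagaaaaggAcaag
Dnah7c: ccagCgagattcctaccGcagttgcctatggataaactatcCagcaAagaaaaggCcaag
The values of these copies are therefore uncertain one by one. Their log2 fold changes, 0.12 for Dnah7a, 0.02 for Dnah7b and 0.04 for Dnah7c, were all small, and none was called (adjusted p from 0.499 to 0.914). Overlapping genes are a further limit. In the RefSeq annotation 13 of the 42 genes overlap the span of a protein-coding gene on either strand, among them Tcte3 (with Ermard), Dnaaf1 (Taf1c), Dnaic1 (Enho), Dnah17 (Pgs1) and Dnaaf5 (Prkar1b). The strand of the counting is not given in the sources used here, so reads from shared stretches cannot be told apart. Dnah3, Armc4 and Dnah9, the genes called below, overlap no protein-coding gene, but each overlaps at least 1 gene model of another type.

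The promoters were searched for 4 motifs, and none of these occurred in most of the genes. The X-box, read as GTNNCC followed by 3 free bases and GNAAC, is the site of RFX factors, which drive genes of cilia and flagella. It was looked for, like the other motifs, on both strands in the 300 bases from 250 before to 50 after an annotated transcript start (RefSeq, GRCm38.p6), and 36 of the 42 genes had such a promoter in the table. That start lay within 500 bases of the outermost end of the gene as the deposited table gives it in 21 of the 36, and farther away in the other 15. For Dnah5 it lay 53689 bases inside the gene, for Zmynd10 13359, for Dnah9 2054, for Ccdc114 2000 and for Dnah17 1742, so other starts of these genes were not searched. X-boxes occurred in 8 of the 36 (22.2%), beside 2.17% of all 32851 promoters and 3.25% of those of the 12522 tested genes with a promoter. The sites follow with 8 bases on either side, capitals marking the X-box and each written in the direction in which the motif reads; those of Ccdc151 and the first of Pih1d3 match on both strands.
Pih1d3, chr1:31222780-31222793: acaaagttGTTACCCAGGCAACagagcaac
Pih1d3, chr1:31222700-31222713: acaggagaGTCTCCTTTGAAACaataccag
Zmynd10, chr9:107547304-107547317: gagtcgtcGTCGCCATGGAAACgagggagc
Ccdc151, chr9:22002655-22002668: cgcgggcgGTTTCCTTGGGAACgtgggcgg
Pih1d2, chr9:50617090-50617103: tcccccacGTCCCCTTGGAAACctcaagct
Dnaaf2, chr12:69198433-69198446: cgtgctttGTTGCCATAGTAACgcctggga
Dnaaf5, chr5:139150217-139150230: cgttgcctGTCTCCAAGGGAACcggcgcta
Ccdc114, chr7:45924200-45924213: ggccccttGTCTCCCCAGTAACcagactac
Dnah17, chr11:118129365-118129378: acgcccttGTCACCAGCGCAACcacagata
Assembly factors held 5 of these promoters, docking factors 2 and heavy chains 1. The shorter site GTTGCC, which can lie within an X-box, was in 13 of the 36 promoters (36.1%), beside 12.5% of all promoters and 15.8% of those of tested genes. GTAAACA, a site of the cilia factor FOXJ1, was in 1 of 36, that of Dnah17 (2.78%), beside 3.65% of all and 3.19% of tested genes. The cyclic AMP response element TGACGTCA was in 1, that of Dnah6 (2.78%), beside 1.79% of all and 3.22% of tested genes. A match is a description of the letters and not a bound site.

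Among the outer arm heavy chains with a promoter in the table, Dnah17 was the only one with any of the 4 motifs, and Dnah8, the most abundant, had none, like Dnah5, Dnah9 and Dnah11. The promoters of Dnah17, with 2 of the motifs, and of Dnah9, 1 of the called genes, are printed whole (chr11:118129170-118129469 and chr11:66168502-66168801, both read on the minus strand, written 5′ to 3′, with capitals for the FOXJ1 site on the reverse strand and the X-box). In the promoter of Dnah9 none of the 4 motifs was found, which says only that these letters are not in this window around 1 transcript start.
Dnah17: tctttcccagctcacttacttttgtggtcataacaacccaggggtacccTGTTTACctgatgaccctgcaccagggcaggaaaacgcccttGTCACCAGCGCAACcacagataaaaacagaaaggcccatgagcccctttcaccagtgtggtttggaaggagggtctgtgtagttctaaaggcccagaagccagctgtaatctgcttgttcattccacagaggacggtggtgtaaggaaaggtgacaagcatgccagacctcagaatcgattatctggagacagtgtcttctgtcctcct
Dnah9: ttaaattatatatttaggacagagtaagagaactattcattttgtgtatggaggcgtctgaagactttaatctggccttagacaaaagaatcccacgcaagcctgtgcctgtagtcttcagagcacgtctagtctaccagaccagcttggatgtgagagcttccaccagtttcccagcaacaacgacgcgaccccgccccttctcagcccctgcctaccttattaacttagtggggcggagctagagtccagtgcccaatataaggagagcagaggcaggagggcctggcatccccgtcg

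The first comparison asked which of these genes differ between the genotype labels. Most did not pass the test: at an adjusted p under 0.05 in edgeR, 3 of 41 tested genes were higher in KO-labelled libraries and none was lower. The 3 were the heavy chains Dnah3 and Dnah9 and the docking factor Armc4. Of all 15787 tested genes, 10.3% were higher and 1.46% were lower by the same rule, so the share of dynein genes called higher, 7.32%, was near the background. Dnah3 and Dnah9 also exceeded a 2-fold difference, which 5.48% of all tested genes did in the same direction at an unadjusted p under 0.05. At an unadjusted p under 0.05, 6 dynein genes were higher and 2 were lower, beside 14.6% and 10.5% of all tested genes. DESeq2 called 4 higher and 0 lower, and limma-voom 3 and 0. The median log2 fold change of the 41 genes was 0.02, with quartiles at -0.08 and 0.12, and over all tested genes the median was -0.05.

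**Figure D2:**
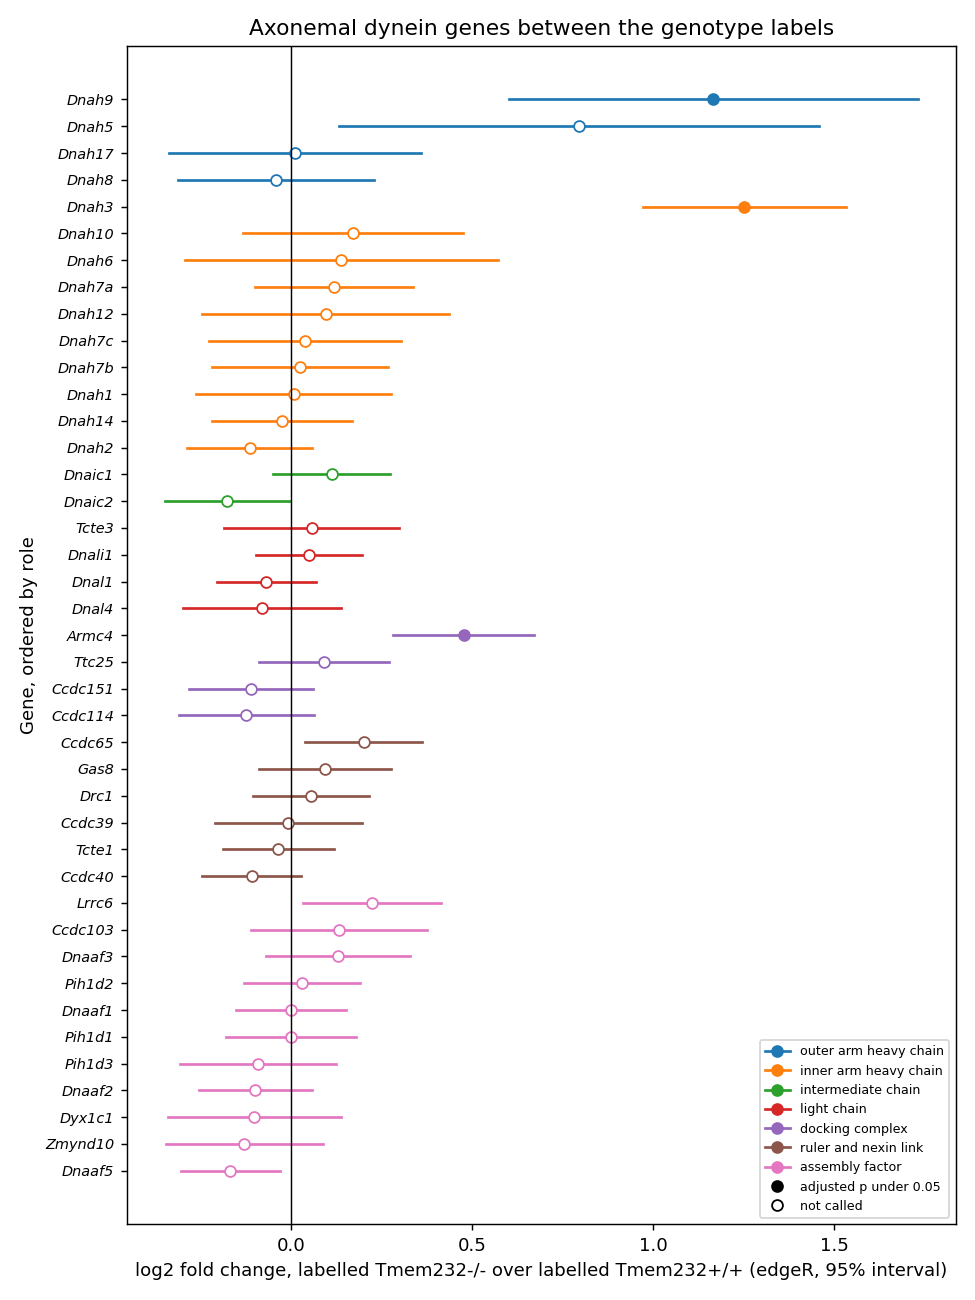
Log2 fold change of the 41 tested genes (KO label over WT label, edgeR) with 95% intervals, grouped by role; filled points have an adjusted p under 0.05. Dnah3, Dnah9 and Armc4 stand to the right, Dnah5 is displaced with a wide interval, and of the other genes not called, Lrrc6 and Ccdc65 have intervals above 0 and Dnaaf5 and Dnaic2 below 0.

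Dnah3, an inner arm heavy chain, differed most. Its gene lies on chromosome 7 of GRCm38 from 119922671 to 120095676 (Entrez ID 381917). KO-labelled libraries held 114, 133, 120.0 and 85.4 CPM, and WT-labelled libraries held 43.5, 44.6, 47.0 and 54.7 CPM. Every value under the first label was above every value under the second, and replicate 4 of each label lay nearest to the other group. The log2 fold change was 1.25 (SE 0.13, adjusted p = 6.45e-05, edgeR), or 2.38-fold, with a 95% interval of 0.97 to 1.53. It was called in all 20 alternative analyses, in which it lay between 1.02 and 1.38. Among the 10 inner arm heavy chains it was the only one called, and the other 9 had log2 fold changes from -0.12 to 0.17. Dnah7b, the most abundant, had 253, 304, 319.3 and 247 CPM under the KO label and 297, 298, 227 and 282 CPM under the other, which overlap. In FPKM, Dnah3 was the least abundant of the 10 under the WT label, with 3.81 ± 0.430 beside 6.56 ± 0.813 for Dnah10, and under the KO label it had 8.85 ± 1.45 beside 7.20 ± 1.37 for Dnah10 (SD, n = 4 each).

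Armc4 (also called ODAD2) docks outer arms on the doublet. It lies on chromosome 18 from 7088233 to 7298304 (Entrez ID 74934) and had 88.0, 80.3, 80.4 and 70.9 CPM under the KO label and 64.2, 52.1, 53.4 and 60.1 CPM under the WT label. The groups did not overlap, and the means were 79.9 ± 7.002 and 57.4 ± 5.71 CPM (SD, n = 4 each). Its log2 fold change was 0.48 (SE 0.089, adjusted p = 0.00356, edgeR), or 1.39-fold, and it was called in all 20 alternatives. The other 3 docking genes were not called: Ttc25 (ODAD4) had a log2 fold change of 0.09 (adjusted p = 0.534, edgeR), Ccdc151 (ODAD3) of -0.11 and Ccdc114 (ODAD1) of -0.12. Ttc25, the most abundant of the 4, had 246, 212, 217 and 213 CPM under the KO label and 209, 184, 230.3 and 209.9 under the other, which overlap. Within 1 complex, the transcript of the factor Armc4 thus rose while those of its partners stayed within 1.25-fold, 95% intervals included.

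Dnah9, an outer arm heavy chain of epithelial cilia (chromosome 11, 65831324 to 66170605, Entrez ID 237806), was the third gene called. The CPM were 6.46, 5.40, 3.92 and 3.20 in KO-labelled libraries and 1.43, 1.88, 2.66 and 2.46 in WT-labelled libraries. The groups did not overlap, but the gap between the lowest of the first and the highest of the second was narrow, and all of these values rest on fewer than 100 counts. The log2 fold change was 1.17 (SE 0.26, adjusted p = 0.0105, edgeR), with a 95% interval of 0.60 to 1.73. Dnah9 was called in 18 of the 19 alternatives that tested it, with an adjusted p from 0.000472 to 0.0515, and the call was lost with the replicate number as a block (log2 fold change 1.14, adjusted p = 0.0515). Dnah5, another outer arm heavy chain known from epithelial cilia (chromosome 15, 28150077 to 28472045, Entrez ID 110082), had 2.60, 2.39, 1.83 and 1.29 CPM under the KO label and 0.685, 1.03, 1.71 and 1.23 CPM under the WT label. These overlap, and its log2 fold change of 0.80 (SE 0.302, adjusted p = 0.128, edgeR) was not called, except in the analysis without WT-labelled replicate 3 (1.07, adjusted p = 0.0441). Replicates were ranked alike by both genes within each label: KO-labelled replicate 1 was the highest and WT-labelled replicate 1 the lowest of the 8 libraries.

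The outer arm heavy chains of sperm did not pass the test. Dnah8 (chromosome 17, 30626936 to 30875762) had 1537, 1974, 2009 and 1450.0 CPM under the KO label and 2017, 1846, 1506 and 1812 CPM under the other. The values of both labels overlapped over nearly their whole range, and the log2 fold change was -0.04 (SE 0.123, adjusted p = 0.855, edgeR), with a 95% interval of -0.31 to 0.23. For Dnah17 it was 0.01, with an interval of -0.34 to 0.36. Summed, Dnah8 and Dnah17 had 172 ± 27.4 and 181 ± 19.8 FPKM (SD, n = 4 each; exact permutation test over 70 arrangements, two-sided p = 0.686). Dnah5, Dnah9 and Dnah11 together had 0.6375 ± 0.213 and 0.335 ± 0.121 FPKM (SD, n = 4 each; exact permutation test, two-sided p = 0.0571, where 0.0286 is the smallest this design allows). They made up 0.380% and 0.192% of the outer arm heavy chain FPKM (exact permutation test, two-sided p = 0.0857), so the pool remained almost wholly Dnah8 and Dnah17 under both labels.

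**Figure D3:**
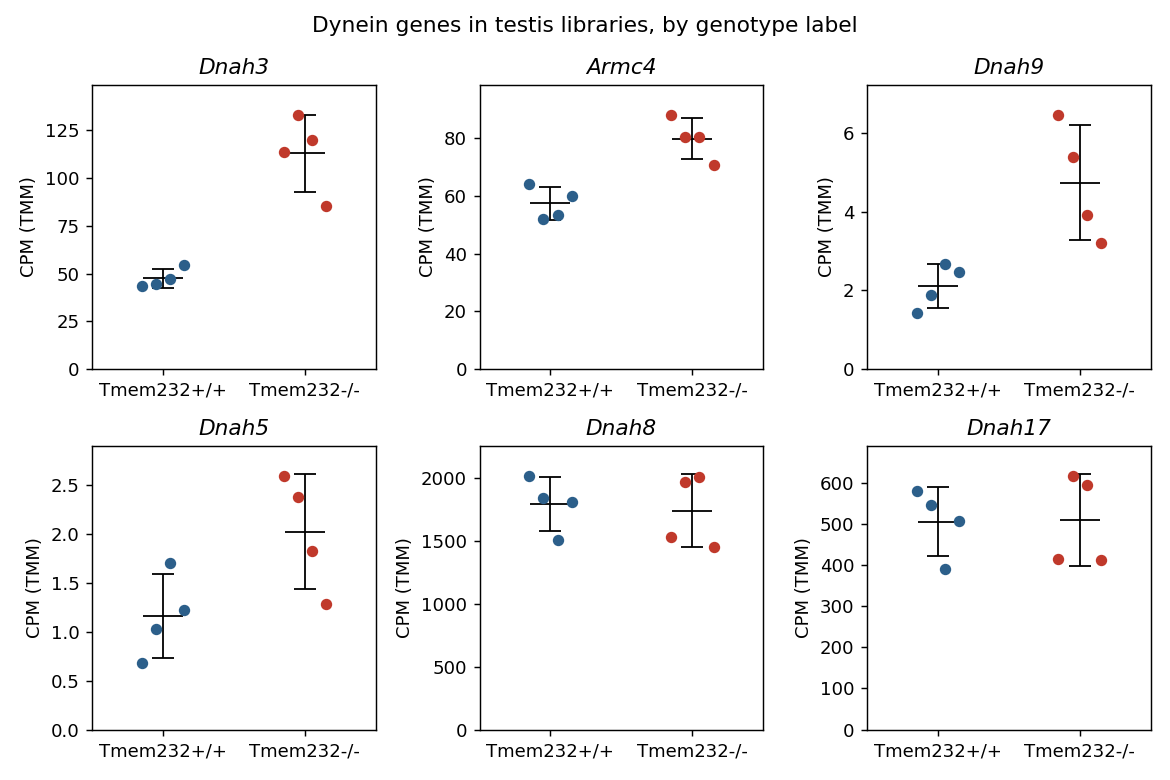
CPM (vertical, TMM scaled, from 0) of 6 genes in each library, blue for the WT label and red for the KO label; black marks are the mean and SD of 4 libraries. Dnah3, Armc4 and Dnah9 separate the labels, Dnah5 overlaps, and Dnah8 and Dnah17 cover the same range under both.

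Most spermatid markers, as given above, and 2 genes listed as markers of multiciliated epithelium were higher in the same libraries as these 3 genes. Of 8 markers of multiciliated epithelium, 3 were tested and 2 were called higher, namely Foxj1 with a log2 fold change of 0.53 (adjusted p = 0.00174, edgeR) and Deup1 with 0.86 (adjusted p = 0.000135, edgeR), and Ccno was not called. The summed level of the 8 was 199 to 261 CPM under the KO label and 123 to 142 under the other. Most of this sum came from the 2 called genes, Deup1 (means of 148 and 81.2 CPM) and Foxj1 (71.8 and 49.7 CPM). Mcidas and Cdhr3 never exceeded 3 and 1 counts in a library, and Gmnc, Sec14l3 and Trp73 never exceeded 8, 8 and 10. The sum is thus not a level of such epithelium, and whether the tissue held any was not tested. The part of spermatids or of other cells in the differences of Dnah3, Armc4 and Dnah9 was not tested either.

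Intermediate chains, which tether the heavy chains to the doublet, held no call. Dnaic1, the more abundant, had 144, 157, 161 and 138 CPM under the KO label and 150.5, 135, 131 and 139.7 under the other, with a log2 fold change of 0.11 (adjusted p = 0.380, edgeR). Dnaic2 had the lowest log2 fold change of all members, -0.18 (SE 0.079, adjusted p = 0.190, edgeR), with 83.8 to 103 against 100.03 to 110.3 CPM, which overlap, and was not called. Of the light chains, Tcte3 had 706, 490.4, 575 and 539.8 CPM against 578, 503, 615 and 527 CPM, which overlap throughout, and its log2 fold change was 0.06 (adjusted p = 0.787, edgeR). Dnal1, Dnal4 and Dnali1 had log2 fold changes of -0.07, -0.08 and 0.05.

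In the rulers and the nexin link, Ccdc65 had 339, 319.5, 318 and 296 CPM under the KO label and 292, 252, 294 and 270.1 CPM under the other. The groups did not overlap, but by a margin of under 2 CPM. Its log2 fold change of 0.20 (SE 0.073, adjusted p = 0.115, edgeR) missed the threshold, while DESeq2 called it (0.22), as did the fit without WT-labelled replicate 3 (0.26). Ccdc39 and Ccdc40, which form the ruler for the inner arms and radial spokes, had log2 fold changes of -0.01 and -0.11, and the nexin link genes Drc1, Gas8 (DRC4) and Tcte1 (DRC5) of 0.05, 0.09 and -0.04. None of these 5 was called.

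The 11 assembly factors, which fold and join dynein subunits before transport, held no call in edgeR. Dnaaf1 had 941, 933, 903 and 881 CPM against 1004, 847, 893 and 916 CPM, and a log2 fold change of 0.00 with a 95% interval of -0.15 to 0.15. Dnaaf5, a HEAT-repeat factor and 1 of 7 assembly factors with a negative log2 fold change, had 109, 105, 114.0 and 103 CPM under the KO label and 125, 114.3, 122 and 124 CPM under the other. The groups did not overlap, by a margin of under 1 CPM, and the log2 fold change was -0.17 (SE 0.062, adjusted p = 0.117, edgeR). It was called lower in 5 of 20 alternatives. Lrrc6 (Dnaaf11) had 133 to 178 CPM against 125 to 137 CPM, which overlap, and a log2 fold change of 0.22 (adjusted p = 0.138, edgeR), which was called only without KO-labelled replicate 4 (adjusted p = 0.0287). The remaining 8 lay between -0.13 for Zmynd10 and 0.13 for Ccdc103.

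Counting by library in CPM, 4 genes had no overlap with all KO-labelled values above, namely Dnah3, Armc4, Dnah9 and Ccdc65, beside 11.8% of all tested genes. Dnaaf5 was the only gene with all WT-labelled CPM values above, beside 6.88%. The tally depends on the scale. In FPKM, Ccdc65 overlapped, and Ccdc40, Dnaic2 and Dnal1 joined Dnaaf5 with all WT-labelled values above. The share of all genes was not counted in FPKM. For the 38 genes not called, the 95% interval of the fold change lay within 1.5-fold in 37, all but Dnah5, and within 1.25-fold in 25. Larger differences than these were thus outside the intervals for most of the genes.

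Most heavy chains deviated together among libraries of the same label. A per-library index of long transcripts was computed from tested genes outside the rule, as the median log2 deviation of the 10% with the longest transcripts minus that of the 10% with the shortest. Under the KO label it was -0.15, 0.17, 0.21 and -0.24 in replicates 1 to 4, and under the WT label 0.02, 0.28, -0.32 and 0.08. The median deviation of the 11 heavy chains other than Dnah3, Dnah5 and Dnah9, left out after their values were seen, was -0.14, 0.18, 0.21 and -0.19, and 0.11, 0.09, -0.29 and 0.03. Both measures were lowest in WT-labelled replicate 3 and below 0 in the same 3 libraries. The 27 other members had medians from -0.11 to 0.09. The index did not separate the labels, with means of -0.0042 ± 0.227 and 0.0115 ± 0.250 (SD, n = 4 each; exact permutation test, two-sided p = 0.971).

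**Figure D4:**
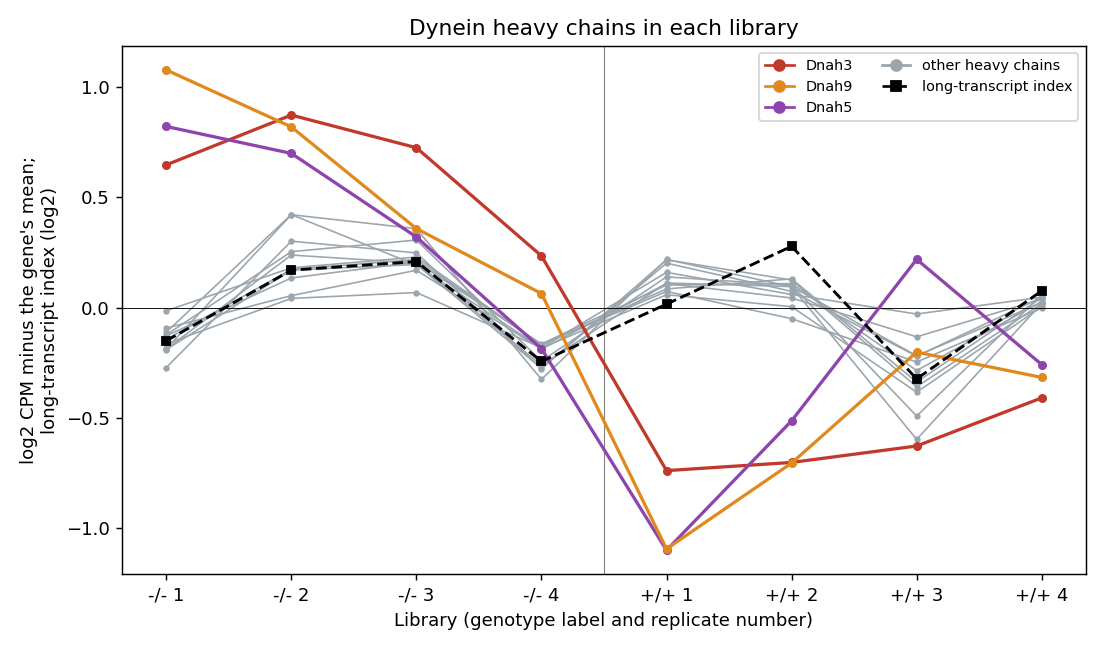
Log2 CPM minus the mean of each gene (vertical) for the 14 tested heavy chains in the 8 libraries, with the long-transcript index as black squares; lines join the values of a gene and imply no order. All grey lines lie below 0 in the 3 libraries in which the index does. Dnah7a also lies slightly below 0 in WT-labelled replicates 2 and 4 (-0.05 and -0.0019). Dnah3 and Dnah9 lie higher in every KO-labelled than in any WT-labelled library.

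With this index as a covariate in edgeR, an alternative added after the data were seen, the standard error of Dnah8 fell from 0.123 to 0.0707, that of Dnah6 from 0.196 to 0.0909 and that of Dnah12 from 0.155 to 0.0674. The log2 fold changes of Dnah3, Armc4 and Dnah9 stayed at 1.25, 0.48 and 1.17. Under this model 4 genes were called higher, with Ccdc65 added (0.20, adjusted p = 0.0389), and Dnaaf5 was called lower (-0.17, adjusted p = 0.0434). Calls rose over the whole table too: 13.1% of all tested genes were higher and 7.33% lower under this model, beside 10.3% and 1.46% without the covariate. Dnah8 and Dnah17 remained uncalled, at -0.04 and 0.01.

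Other genes of the arms, outside the rule, were looked up from a list of 26. Of 25 tested, 3 (12%, beside 10.3% of all tested genes) were higher and 0 lower in edgeR (5 and 0 at an unadjusted p under 0.05, 3 and 0 in DESeq2 and in limma-voom), with a median log2 fold change of 0.04. Ccdc63, a paralogue of the docking factor Ccdc114, had 104 to 135 CPM under the KO label and 43.5 to 61.6 under the other, a log2 fold change of 1.13 (adjusted p = 7.76e-05, edgeR). Fbxl13 (DRC6), of the nexin link, had 84.8 to 110.8 against 42.8 to 51.3 CPM and a log2 fold change of 1.07 (adjusted p = 3.28e-05, edgeR). Nme8, an intermediate chain with thioredoxin domains, had 105 to 115 against 89.5 to 97.1 CPM and 0.27 (adjusted p = 0.0124, edgeR), and its call was lost with the replicate block (adjusted p = 0.0798) and without WT-labelled replicate 4 (adjusted p = 0.0504). All 3 separated the labels in CPM, as did Cfap300, which was not called (0.08, adjusted p = 0.449, edgeR). Thus 4 of the 25 had all KO-labelled values above, beside 11.8% of all tested genes. Ccdc63 overlaps Myl2, and Fbxl13 overlaps Fam185a and Lrrc17 in the annotation, so the limit given above for overlapping genes holds for both.

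Cytoplasmic dyneins and intraflagellar transport dyneins, the motors of the cell body and of the growing axoneme, were listed for comparison. Of 14 genes, 1 was higher and 0 lower in edgeR (1 and 1 at an unadjusted p under 0.05, 1 and 0 in DESeq2 and in limma-voom), and their median log2 fold change was -0.01. The higher gene was Dynll2, a light chain shared by several motors, with 0.24 (adjusted p = 0.0248, edgeR), and this call was lost with the replicate block (adjusted p = 0.137), with library size alone (adjusted p = 0.0602), and without KO-labelled replicate 1 or WT-labelled replicate 2 or 4 (adjusted p from 0.0614 to 0.0771). Of neighbouring families, 7 of 30 tested Cfap genes (23.3%, beside 10.3% of all tested genes) were higher and 0 lower (11 and 0 at an unadjusted p under 0.05, 8 and 0 in DESeq2), with a median of 0.11, and of 6 tested Rsph genes 0 were called in edgeR, DESeq2 or limma-voom and 0 had an unadjusted p under 0.05. These lists were not tested against each other. They are not fully separate, since Cfap53, Cfap70, Cfap298 and Cfap300 are in both the Cfap family and the list of other genes of the arms.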

How the data were processed

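Libraries of paired reads were made from whole testis of 8 mice, 1 per mouse, and grouped as KO or WT by the sample titles. After removal of low-quality reads, the authors used HISAT and Bowtie2 for mapping to GRCm38, and StringTie and featureCounts for counting. Versions are not given in the sources used here. The deposited estimated counts are not normalized, and 10.7% to 11.2% of values per library are not whole. Deposited FPKM values are scaled to transcript length and library size. Columns of fold change, p-value and q-value from the authors' DESeq2 comparison were not used.

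Rounded counts were tested with edgeR 4.0.16 under R 4.3.3 (default filter on low counts, TMM, quasi-likelihood test, no covariate), with Benjamini-Hochberg adjustment over 15787 genes. CPM and FPKM are per library; limma 3.58.1 on log2(FPKM + 1) or log2(FPKM + 0.1) and DESeq2 1.42.0 were alternatives, as were limma-voom, other scalings and filters, a replicate block and each library left out. Single values were compared by an exact two-sided permutation test over 70 arrangements in Python 3.11.15 with scipy 1.17.1. Over all pairs of libraries, within and between labels, at most 8.30% of genes had identical counts, so none was a copy of another. The 95% intervals use the degrees of freedom of the quasi-likelihood fit. Counts are reads without molecular identifiers.

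Values in every library are given for the called genes, for the most abundant gene of each role, and for Dnah5 and Dnaaf5. They are not given for every gene whose direction differed from most of its role. Examples are the inner arm heavy chains Dnah2 and Dnah14 (log2 fold changes of -0.12 and -0.03) and the assembly factors Dnaaf3 and Ccdc103 (0.13 each). Marker lists were written from general knowledge. The members, lists and tests were chosen with earlier results of these data known. Coordinates are those of the authors' table (GRCm38.p6), promoters are RefSeq, and coding sequences are the longest open reading frames of GENCODE M21 transcripts. Protein sequences were not used here. The steps were tested on simulated data.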

Additional observations from a re-analysis of the deposited data

Results flagged for a closer look

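In 94 groups of 4 libraries, 1 for each label and each of 47 genes (the 42 dynein genes, Ccdc63, Fbxl13, Nme8, Dynll2 and Tmem232), with a test of the gap between the extreme library and its neighbour (Dixon's test at the 95% level), 5 groups held a library that stood apart, 4 of them WT-labelled replicate 3, and chance alone flags about 1 in 20 groups, or 4.7. WT-labelled replicate 3 was low for the inner arm heavy chains Dnah12 (128 CPM, beside 188 to 199 in the others of its label) and Dnah10 (72.4 CPM, beside 94.6 to 98.3). The same library was high for the docking factor Ccdc114 (54.7 CPM, beside 44.7 to 45.6) and the assembly factor Dyx1c1 (93.5 CPM, beside 70.1 to 73.3). It also had the lowest long-transcript index of the 8 libraries. KO-labelled replicate 1 was high for Ttc25 (246 CPM, beside 212 to 217).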

How the results depend on the processing

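Dnah3 and Armc4 were called higher in all 20 alternatives, with adjusted p from 5.34e-18 to 0.00116 and from 7.49e-06 to 0.0178 over edgeR, DESeq2 and limma. With the replicate number as a block, Dnah9 lost its call (1.14), Dynll2 too (0 cytoplasmic genes higher) and Nme8 (2 other axonemal genes higher), and no other call of the members changed; same-numbered libraries had correlations of -0.12, 0.13, -0.45 and -0.14, so the numbers did not pair the samples. Leaving out 1 library gave 3 to 5 higher and 0 to 0 lower members, 5 without WT-labelled replicate 3, where Ccdc65 and Dnah5 joined. Lower members were 1 (Dnaaf5) with library size alone, with the 3 FPKM settings (pseudocount 1, 0.1, or a mean FPKM of at least 1) and with the long-transcript index as covariate. Cytoplasmic genes higher were 0 with library size alone and 0 to 1 without 1 library (0 without KO-labelled replicate 1 or WT-labelled replicate 2 or 4), and lower were 1 in the FPKM settings and with the index. The median of the members ranged from -0.0096 to 0.109 without 1 library, and without KO-labelled replicate 4 it was 0.096 and without WT-labelled replicate 1 it was 0.109. With library size alone the median was -0.0103. In FPKM it was -0.0323 with a pseudocount of 1, -0.0324 with 0.1 and -0.0370 with a mean of at least 1. The other settings that kept all libraries gave medians above 0. Values near 0 changed sign without any call. Dnaaf1 was 0.0245 with DESeq2 and with its size factors, 0.0433 without a filter, 0.0058 with at least 10 counts in every library, 0.0019 with limma-voom and with the block, and -0.0361 to 0.0863 without 1 library. Dnah7b was -0.0103 with library size alone, -0.0370 in FPKM with a pseudocount of 1 or a mean of at least 1 and -0.0381 with a pseudocount of 0.1, and -0.0440 to 0.103 without 1 library. Dnah8 was 0.0033 without a filter and -0.119 to 0.0596 without 1 library, and Tcte3 -0.0547 to 0.138. The causes were not tested. In FPKM with a pseudocount of 1 the log2 fold change of Dnah9 was 0.26, since the pseudocount exceeds its level. Depth limits Dnah11, Dnah9 and Dnah5.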

Other observations

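Factors known to act on genes of cilia and flagella were also looked up, chosen with results known. Rfx2 and Rfx3 bind the X-box. Rfx2 had 337 ± 50.7 CPM in KO-labelled libraries and 329 ± 55.8 in WT-labelled libraries (SD, n = 4 each; log2 fold change 0.04, adjusted p = 0.891, edgeR). Rfx3, at a lower level, had 26.4 ± 3.95 and 17.04 ± 1.46 CPM (SD, n = 4 each), and all values under the first label were above those under the second (0.63, adjusted p = 0.00331, edgeR). Crem, a regulator of spermatid genes, had a log2 fold change of 0.28 (adjusted p = 0.0716, edgeR), and Mybl1, which acts in pachytene spermatocytes, of 0.04 (adjusted p = 0.831, edgeR). The 8 genes with an X-box in their promoter held none of the 3 called members, and Dnah3 and Armc4 had no promoter in the table.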
